A study of Mus musculus with 53 samples.

Results

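The comparison described here sets mouse embryonic stem cells with both Tbx3 alleles targeted (N/N, called null in the labels) against cells with 1 targeted allele (+/N, heterozygous). Its members were the genes of the deposited bulk expression table that reached 1 FPKM (fragments per kilobase of transcript, scaled to the size of the library) in at least 1 of these 2 libraries, after microRNA, snoRNA and snRNA rows and rows with a number in place of a name had been left out. They numbered 11163 of the 11647 genes listed. Of these members 855 carried predicted or clone names, and 5 were structural RNAs.

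All cells belonged to R1, a male embryonic stem cell line derived from mice of the 129 strain, and were grown in serum with leukaemia inhibitory factor (LIF) and without feeder cells. The other bulk libraries came from unmodified cells (+/+) and from R1 cells carrying a hairpin RNA against Tbx3 (shTbx3) or against luciferase (shLuc), a sequence that mammalian cells lack. Each of these 5 populations gave 1 library of total RNA. The labels do not say which stretch of Tbx3 was targeted, whether +/N and N/N cells are single clones, or whether N/N was derived from +/N.

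Tbx3 is a transcription factor of the T-box family, whose members bind DNA through a conserved domain and can repress or activate nearby genes. In embryonic stem cells it belongs to the naive pluripotency network that LIF signalling maintains, and it has been linked to endoderm differentiation. A heterozygous cell keeps 1 working copy, so the step from +/N to N/N asks what differs when that last copy is also targeted.

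With 1 library a side there was no replicate check and no test, and every statement below describes these libraries. For each gene the difference was log2((N/N + 1)/(+/N + 1)), centred so that the 7519 genes with at least 5 FPKM on both sides had a median of 0. The centring removed a shift of 0.09 on the log2 scale, by which N/N stood above +/N. Adding 1 FPKM by itself makes the difference smaller than the plain ratio of levels, most of all for genes of a few FPKM. The centring lowers every value by the shift, so some lower genes passed 1.5-fold with a smaller plain ratio. Rps29, for example, had a centred fold of 1.51 and a plain ratio of +/N to N/N of 1.43. On the higher side Tdrd12, with a plain ratio of N/N to +/N of 1.59, fell short of the line. Fewer cells of a type and less RNA per cell cannot be told apart in bulk RNA.

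Tbx3 itself (chr5:120120678-120134733, mm9, plus strand) was listed at 44.4 FPKM in +/+, 22.5 FPKM in +/N and 15.1 FPKM in N/N, and at 13.8 FPKM in shLuc and 5.09 FPKM in shTbx3. The N/N library was the lowest of the 3 genotypes but not near 0, and it lay above both hairpin libraries. The centred log2 difference of N/N over +/N was -0.64. Without the targeted stretch being known, the remaining level does not tell whether working transcript was left, so N/N below means the library labelled null.

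The 2 libraries were closely alike. Pearson's r of log2(FPKM + 1) across 11437 genes was 0.994 for +/N with N/N, against 0.980 for +/+ with +/N, 0.970 for +/+ with N/N and 0.967 for shLuc with shTbx3. Genes are not independent replicates, and these values only describe the libraries. Of 7 embryonic stem cell markers 6 were listed, and their summed level was 2392 FPKM in +/+, 2254 FPKM in +/N and 2282 FPKM in N/N. Markers of fibroblasts or feeder cells (5 of 8 listed) summed to 39.2, 87.9 and 95.7 FPKM in the same order, those of extraembryonic endoderm (4 of 7 listed) to 12.9, 4.38 and 2.50 FPKM, and none of 4 haematopoietic markers was listed.

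Across the 11163 members the centred difference had a median of -0.02 and a standard deviation of 0.185, and the middle 95% lay between -0.41 and 0.33. At 1.5-fold or more, 35 genes (0.314%) were higher and 84 (0.752%) lower in N/N, 119 in all (1.07%). At 2-fold or more, 5 genes (0.0448%) were higher and 6 (0.0537%) lower. The share past 1.5-fold either way was 6.04% for +/N over +/+, 11% for N/N over +/+ and 13.7% for shTbx3 over shLuc, by the same rule. The balance of the calls depended on the centring: 29.4% of the genes past 1.5-fold were higher with it, and 57.9% (66 higher and 48 lower) without it.

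**Figure D1:**
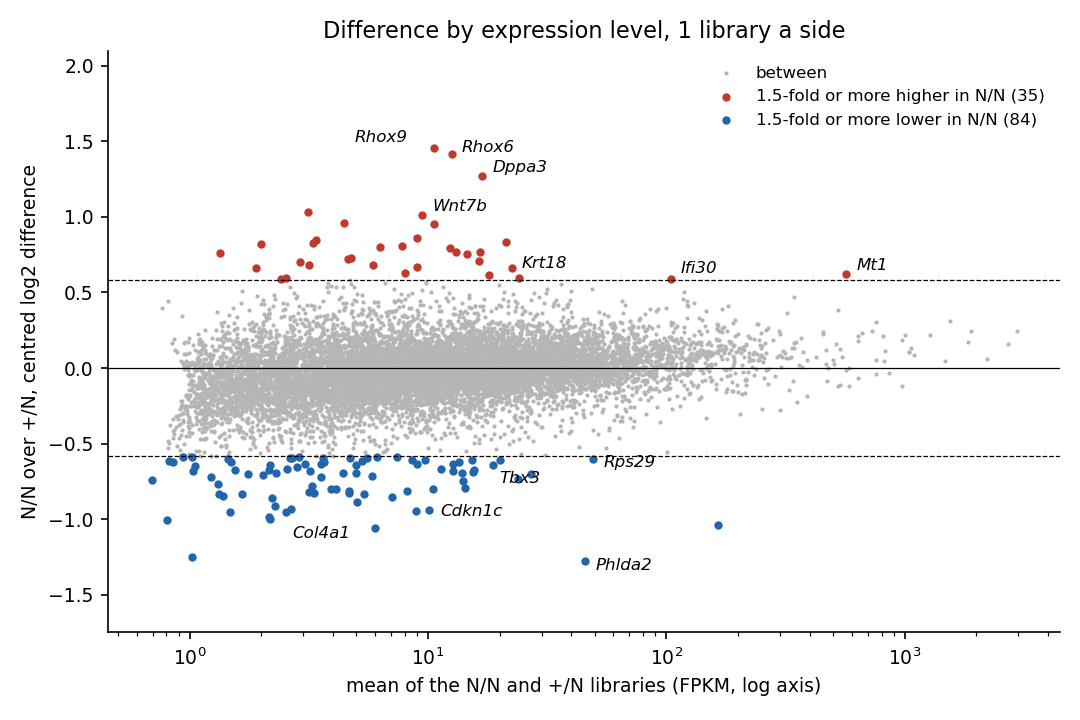
Centred log2 difference of N/N over +/N against the mean level of the 2 libraries in FPKM (log axis), 1 point a gene. Dashed lines mark 1.5-fold, and the 35 genes above and 84 below are coloured. Rhox9, Rhox6 and Dppa3 lie highest and Phlda2 lowest, while the spread widens towards low levels.

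The gene Dppa3 (also called Stella, chr6:122576428-122580290, mm9), which protects maternal DNA methylation in the early embryo and marks a fraction of naive stem cells, was the third highest member. It was listed at 5.32 FPKM in +/+, 8.95 FPKM in +/N, 24.7 FPKM in N/N, 29.1 FPKM in shLuc and 51.3 FPKM in shTbx3. N/N was the highest of the 3 genotypes, yet it lay under the control of the hairpin pair. The centred difference of N/N over +/N was 1.27 on the log2 scale, and the plain ratio of the levels was 2.75.

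No other naive pluripotency gene was higher in N/N beyond 1.5-fold. Of 16 such genes 15 had a centred difference below 0, among them the targeted gene Tbx3 itself, the only 1 past 1.5-fold lower. The list's median, with Tbx3 counted, was -0.21 (-0.11 without centring), beside -0.02 over all members (0.07 without centring). Klf4, a naive-state factor, stood at 88.9, 49.5 and 36.5 FPKM in +/+, +/N and N/N, a centred difference of -0.52 between the last 2. Gbx2, a homeobox gene that can sustain self-renewal, had a difference of -0.55, and Nr0b1, a nuclear receptor of the network, one of -0.46. The core factor Pou5f1 was at 540 FPKM in +/N and 532 FPKM in N/N, Sox2 at 213 and 202 FPKM, and Nanog at 70.4 and 59.9 FPKM. Of 13 core pluripotency genes none was past 1.5-fold, and their median was -0.14 (-0.04 without centring).

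The largest positive differences belonged to 2 genes of the Rhox cluster, X-linked homeobox genes active in germ cells, placenta and early embryos. Rhox9 (chrX:35252274-35255044, mm9) was listed at 9.40 FPKM in +/+, 4.90 FPKM in +/N and 16.2 FPKM in N/N, a centred difference of 1.45 for N/N over +/N. Rhox6 (chrX:35180087-35183034, mm9) was at 9.58, 6.04 and 19.1 FPKM, a difference of 1.42. For both genes +/N was the lowest of the 3 genotypes, below the level of unmodified cells. The hairpin pair also differed in this direction, with Rhox6 at 3.75 FPKM in shLuc and 11.6 FPKM in shTbx3, and Rhox9 at 3.70 and 10.0 FPKM.

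The other 2 Rhox genes among the members moved less. Rhox1 had a difference of 0.39 at 1.94 FPKM in +/N and 3.10 FPKM in N/N, and Rhox13 one of -0.38. Rhox6 and Rhox9 are near copies of each other: the longest coding transcripts of the annotation were 93.9% identical over 836 aligned bases. Of the stretches of 26 bases in Rhox9 8.08% also occur in Rhox6, and of those of 100 bases 2.68%. How reads that fit both were counted is not known.

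Of all lists, that of trophectoderm and simple epithelium had the most genes past 1.5-fold on the higher side. Of its 18 genes 14 had a difference above 0, as did 44.4% of all members, and the median was 0.17 (0.26 without centring). The genes past 1.5-fold were Rab25, Espn, Krt18 and Cldn7, and none was lower beyond that line. Over all members 0.314% were higher and 0.752% lower by that rule. The list was chosen with earlier results of these data known, so its count is not an independent result. Rab25, a small GTPase of epithelial recycling vesicles, was at 3.49 FPKM in +/+, 5.80 FPKM in +/N and 12.2 FPKM in N/N, a difference of 0.86. Espn, which bundles actin filaments in microvilli, was at 14.2, 14.4 and 28.3 FPKM, a difference of 0.83. Krt18, a keratin of simple epithelia, was at 18.6, 16.4 and 28.4 FPKM, and Cldn7, a tight junction protein, at 14.3, 18.2 and 29.9 FPKM, with differences of 0.66 and 0.59.

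Krt8, the partner keratin of Krt18, was at 3.30 FPKM in +/N and 5.36 FPKM in N/N, short of the line at 0.47, and the claudin gene Cldn4 was at 150 and 213 FPKM, a difference of 0.41. The epithelial adhesion genes Cdh1 and Epcam, which stem cells also express, were at 77.0 and 88.7 FPKM and at 71.7 and 87.2 FPKM, differences of 0.11 and 0.18. Outside the list, Esrp1, a splicing regulator of epithelial cells, was at 6.39 FPKM in +/+, 11.6 FPKM in +/N and 21.0 FPKM in N/N, and Ap1m2, an epithelial sorting adaptor, was at 10.7, 13.5 and 22.7 FPKM. Of 4 defining trophectoderm markers only Krt7 was listed, at 3.39, 4.54 and 6.79 FPKM, and Cdx2, Elf5 and Gata3 were not. Other trophoblast regulators of the list lay on both sides of 0, with Tfap2c at 0.27, Hand1 at 0.16, Tead4 at 0.02, Gata2 at -0.09, Eomes at -0.14 and Ascl2 at -0.38. The part of another cell type in these differences was not tested.

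**Figure D2:**
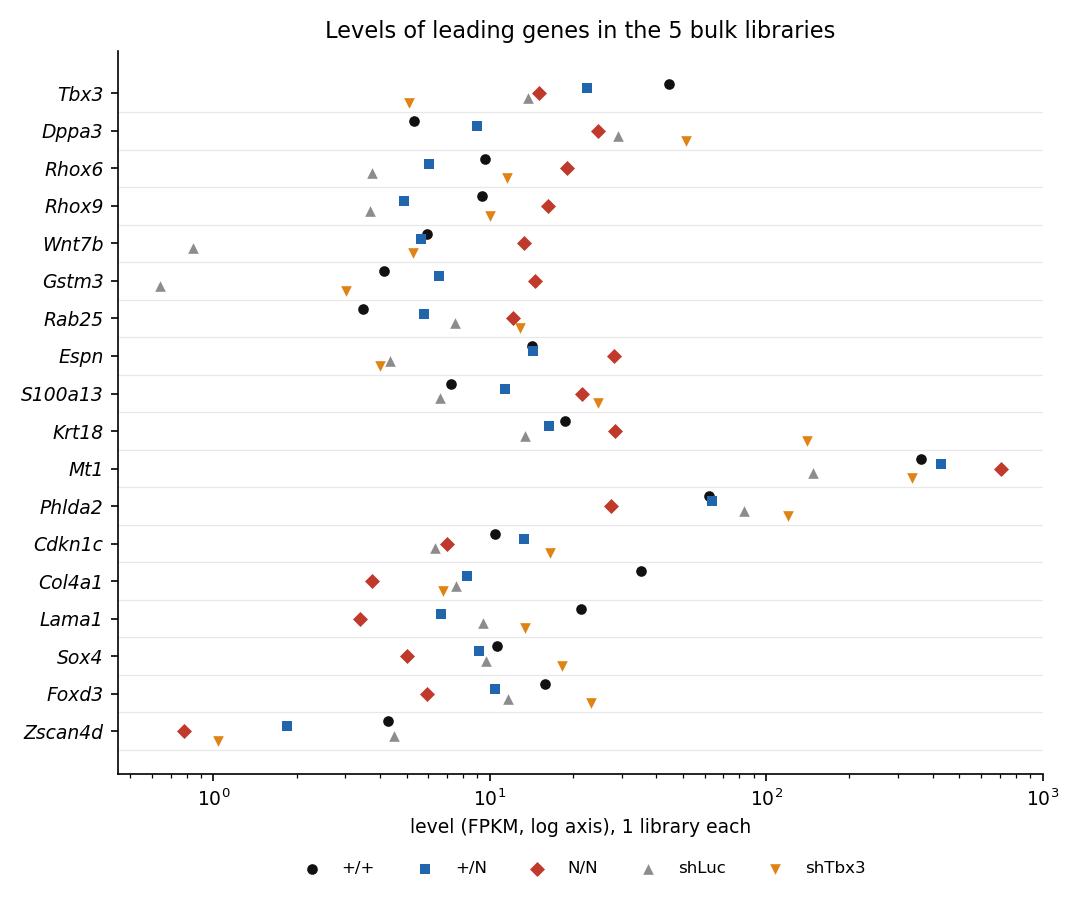
Levels in FPKM (log axis) of 18 genes in the 5 bulk libraries, 1 symbol a library. Dppa3, Rhox6, Rhox9, Wnt7b, Gstm3 and Espn are highest in N/N among the 3 genotypes, and Phlda2, Col4a1, Lama1, Sox4 and Foxd3 are lowest there.

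Among signalling genes, Wnt7b, a Wnt ligand of epithelia and placenta, was at 5.94 FPKM in +/+, 5.63 FPKM in +/N and 13.3 FPKM in N/N, a difference of 1.01. It was at 0.843 FPKM in shLuc and 5.28 FPKM in shTbx3. None of the other 17 Wnt pathway genes was past 1.5-fold higher: Sfrp1, a secreted Wnt inhibitor, was lower at 27.6, 10.3 and 6.87 FPKM, and Axin2, a common target of the pathway, had a difference of -0.05.

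Some glutathione transferases and metallothioneins were also higher. Of 34 glutathione and oxidative stress genes 25 lay above 0, with a median of 0.14 (0.23 without centring), and Gstm3 and Gstm2 were past 1.5-fold. The other 9 lay below 0, among them Nqo1, a quinone reductase, at -0.45. Gstm3, a mu class glutathione transferase, was at 4.13, 6.55 and 14.6 FPKM in +/+, +/N and N/N, a difference of 0.95. Gstm2 was at 6.66, 6.41 and 11.6 FPKM, a difference of 0.67, and Gstm1 at 15.2, 21.8 and 32.2 FPKM, one of 0.45. All 7 mu class genes among the members lay above 0, from 0.17 to 0.95. They are related in sequence: Gstm2 and Gstm3 transcripts were 85.1% identical, though 2.27% of the stretches of 26 bases and 0% of those of 100 bases in Gstm3 also occur in Gstm2.

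Mt1, a metallothionein that binds zinc and copper, was the most abundant gene past the line, at 365 FPKM in +/+, 430 FPKM in +/N and 707 FPKM in N/N, a difference of 0.62. Its neighbour Mt2 was at 280, 277 and 411 FPKM, a difference of 0.47. Mt4, at 4.78 FPKM in N/N, was higher by 0.85, and the brain form Mt3, at 2.82 FPKM, was lower, at -0.59. The promoter of Mt1 is printed with its matches to the core of the metal response element, the sequence through which the factor Mtf1 drives metallothionein genes (TGCACNC or TGCGCNC, both strands, N being any base). The sequence runs 5′ to 3′ from 250 bases before to 50 bases after the start, from RefSeq on GRCm38.p6 (chr8:94178839-94179138, plus strand), with the 3 matches in capitals.

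Mt1 promoter: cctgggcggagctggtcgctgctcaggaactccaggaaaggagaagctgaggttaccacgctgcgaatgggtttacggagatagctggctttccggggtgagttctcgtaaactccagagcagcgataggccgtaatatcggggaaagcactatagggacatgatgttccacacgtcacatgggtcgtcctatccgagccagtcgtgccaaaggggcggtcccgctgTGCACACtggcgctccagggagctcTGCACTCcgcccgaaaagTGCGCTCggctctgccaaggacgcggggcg

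A match is a description of letters and does not mark a working site. Of all 32851 RefSeq promoters of this length 25.7% held at least 1 match. So did promoters of 6 of 24 genes on the higher side (25%) and of 23 of 53 on the lower side (43.4%). Among the members that passed 1.5-fold in neither direction the share was 41.9%. The windows of the lower genes Phlda2 and Col4a1, printed below, also hold matches, which are not marked there.

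The divergent genes S100a1 and S100a13 start 43 bases apart on opposite strands in the annotation of the files' build and differed to the same extent. S100a1, a calcium-binding protein best known from heart muscle, was at 8.24, 10.1 and 19.1 FPKM in +/+, +/N and N/N, a difference of 0.76. S100a13, which takes part in the release of proteins that lack a signal peptide, was at 7.26, 11.4 and 21.5 FPKM, a difference of 0.77. Both were also higher in the hairpin pair, S100a1 at 3.0 and 8.06 FPKM and S100a13 at 6.58 and 24.7 FPKM in shLuc and shTbx3. Their neighbour S100a4, a gene of motile and fibroblast-like cells, went the other way at 5.32, 18.2 and 12.4 FPKM, a difference of -0.61. S100a1 and S100a13 do not overlap in the annotation and have separate starts. Whether the counting used strand is not given.

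The S100a13 promoter is shown because the S100a1 and S100a13 windows share 204 bases and because it holds the core of the T-box binding sequence (GGTGTGA, both strands), in capitals. This core begins 164 bases before the S100a13 start and lies outside the 204 shared bases. The window comes from RefSeq on GRCm38.p6 (chr3:90514185-90514484, plus strand), where the S100a1 and S100a13 starts are 105 bases apart.

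S100a13 promoter: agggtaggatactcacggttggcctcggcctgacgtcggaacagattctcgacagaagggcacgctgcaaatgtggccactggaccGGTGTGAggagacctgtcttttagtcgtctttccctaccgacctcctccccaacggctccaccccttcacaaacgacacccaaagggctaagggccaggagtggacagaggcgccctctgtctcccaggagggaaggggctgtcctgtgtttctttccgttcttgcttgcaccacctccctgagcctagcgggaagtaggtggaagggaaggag

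Of the 119 genes past 1.5-fold 77 had a RefSeq promoter. The T-box core was found in 1 of 24 on the higher side, in 0 of 53 on the lower side and in 324 of 7954 other members (4.07%), beside 3.98% of all RefSeq promoters.

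On the lower side the largest difference was that of Phlda2 (chr7:150687450-150688446, mm9), an imprinted gene, expressed from the maternal copy, that restrains placental growth. It was listed at 61.97 FPKM in +/+, 63.8 FPKM in +/N and 27.5 FPKM in N/N, and at 83.1 FPKM in shLuc and 120 FPKM in shTbx3. N/N was the lowest of all 5 libraries. The centred difference was -1.28 and the plain ratio of +/N to N/N was 2.32.

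The 2 genes next in line on one side of Phlda2, in the same imprinted domain of chromosome 7, were lower too. Slc22a18, a membrane transporter, was at 3.64, 3.58 and 1.52 FPKM in +/+, +/N and N/N, a difference of -0.95. Cdkn1c, the cyclin-dependent kinase inhibitor p57, was at 10.4, 13.3 and 6.98 FPKM, a difference of -0.94. Their starts lie 12.7 kb (Cdkn1c to Slc22a18) and 28.8 kb (Slc22a18 to Phlda2) apart, and all 3 are known to be expressed from the maternal copy. The next genes on either side did not share it: Nap1l4 stood at 58.1 and 60.7 FPKM in +/N and N/N (-0.03), Tssc4 at 23.8 and 23.5 FPKM (-0.11) and Cd81 at 147 and 155 FPKM (-0.02). Ascl2, a trophoblast regulator farther along the domain, was at 6.29 and 4.98 FPKM (-0.38).

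The growth genes Igf2 and H19, in another imprinted domain of that chromosome, were at 15.1 and 16.4 FPKM and at 82.4 and 116 FPKM, differences of 0.02 and 0.40. In the imprinted domain of chromosome 12, Dlk1, a Notch ligand homologue, was at 0.968, 3.70 and 1.62 FPKM (-0.93) and the noncoding RNA Mirg at 6.01, 6.43 and 4.18 FPKM (-0.61), while Meg3 and Rian had differences of -0.21 and -0.27. Of 29 imprinted genes 5 were past 1.5-fold lower and none higher, beside 0.752% and 0.314% of all members. The median was -0.07, and it was 0.03 without centring, so its sign depended on the centring.

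The Phlda2 promoter is printed because this gene led the lower side. It comes from RefSeq on GRCm38.p6 (chr7:143502475-143502774, minus strand), with a TATA box (TATAAA, both strands), 30 bases before the start, in capitals. This match was present in 13.6% of all RefSeq promoters.

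Phlda2 promoter: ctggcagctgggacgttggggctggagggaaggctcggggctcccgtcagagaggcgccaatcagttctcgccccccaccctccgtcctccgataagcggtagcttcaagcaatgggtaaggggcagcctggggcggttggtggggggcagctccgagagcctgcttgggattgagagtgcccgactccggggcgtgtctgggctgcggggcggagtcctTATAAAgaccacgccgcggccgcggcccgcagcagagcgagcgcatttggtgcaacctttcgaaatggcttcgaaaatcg

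Basement membrane genes gave a further group. Col4a1, the alpha 1 chain of collagen IV, was at 35.1 FPKM in +/+, 8.27 FPKM in +/N and 3.75 FPKM in N/N, a difference of -1.06 for N/N over +/N. Its divergent neighbour Col4a2, the alpha 2 chain, was at 20.5, 5.09 and 2.73 FPKM, a difference of -0.80. Lama1, the laminin alpha 1 chain of the early embryo, was at 21.3, 6.64 and 3.40 FPKM, a difference of -0.89. For all 3 the 3 genotypes were ordered +/+, +/N, N/N, and the gap from +/+ to +/N was the larger one in FPKM.

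No other gene of that list was past 1.5-fold. Over all members 0.752% were lower by that rule. Of 17 basement membrane genes 16 had a centred difference below 0, as did 6204 of the 11163 members. The list's median was -0.19, but without centring 7 of 17 lay above 0 and the median was -0.10. Nid1, which links laminin to collagen IV, was at 40.4 and 32.1 FPKM in +/N and N/N (-0.41), and the collagen chaperone gene Serpinh1 at 29.1 and 25.1 FPKM (-0.30). Lamb1 and Lamc1, the partner chains of Lama1, were at 32.3 and 34.2 FPKM and at 40.3 and 36.1 FPKM in +/N and N/N. In the hairpin pair Col4a1 was at 7.58 FPKM in shLuc and 6.77 FPKM in shTbx3 (centred difference -0.30), Col4a2 at 2.63 and 3.44 FPKM (0.13) and Lama1 at 9.43 and 13.5 FPKM (0.31), none of them past 1.5-fold. Endoderm regulators, which belong to a cell type rich in these matrix proteins, were low and moved in the same direction: Gata6 was at 3.14, 1.21 and 0.615 FPKM in +/+, +/N and N/N, and Gata4 at 4.06, 1.41 and 0.953 FPKM. Of 7 endoderm genes 6 lay below 0 and none was past 1.5-fold (median -0.40, and -0.30 without centring). Gata4, Gata6, Dab2 and Pdgfra reached 1 FPKM in +/N and not in N/N. The filter therefore let them in only with a value below 0, and the count and median follow partly from it. With no filter on level the median was -0.43. Sox7, Afp and Ttr were not listed, and the part of endoderm cells in the basement membrane values was not tested.

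The Col4a1 window is shown because the first bases of Col4a1 and Col4a2 overlap on opposite strands. It comes from RefSeq on GRCm38.p6 (chr8:11312777-11313076, minus strand), and the capitals mark the 22 bases from the Col4a1 start to the Col4a2 start, which both genes transcribe.

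Col4a1 promoter: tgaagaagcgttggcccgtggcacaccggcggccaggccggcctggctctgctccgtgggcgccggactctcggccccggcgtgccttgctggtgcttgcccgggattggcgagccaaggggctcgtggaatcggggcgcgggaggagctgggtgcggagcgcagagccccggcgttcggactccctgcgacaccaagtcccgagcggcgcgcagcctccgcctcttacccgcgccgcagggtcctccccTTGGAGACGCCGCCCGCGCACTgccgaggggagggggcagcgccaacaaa

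This window held 37 CpG dinucleotides, against a median of 7 over all RefSeq promoters.

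Regulators of early lineages were among the lower genes. Sox4, a factor of progenitor cells, was at 10.6, 9.16 and 5.00 FPKM in +/+, +/N and N/N (-0.85), and Foxd3, a forkhead factor of the epiblast and neural crest, at 15.9, 10.4 and 5.94 FPKM (-0.81). In the hairpin pair both went the other way, Sox4 at 9.69 FPKM in shLuc and 18.3 FPKM in shTbx3 and Foxd3 at 11.6 and 23.2 FPKM. Ngfr, the low-affinity neurotrophin receptor, was at 10.1, 6.09 and 3.27 FPKM in the genotypes (-0.82), and Prmt8, an arginine methyltransferase of neural cells, at 11.6, 6.08 and 3.29 FPKM (-0.82). Of 10 neuroectoderm genes Sox4, Ngfr and Prmt8 were past 1.5-fold lower, beside 0.752% of all members. The list was chosen with earlier results of these data known, so this count is not an independent result. Another 4 of the 10 lay above 0, among them Nes, an intermediate filament of neural progenitors, at 2.35 and 3.15 FPKM in +/N and N/N. Of 14 formative and primed genes only Foxd3 passed the line, and Otx2, a main regulator of that state, was at 33.4 and 37.5 FPKM.

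Among signalling lists, Spry4, a feedback inhibitor of FGF signalling, was at 25.8, 13.8 and 8.92 FPKM in +/+, +/N and N/N (-0.67), and it was the only one of 17 FGF and MAPK targets past 1.5-fold. Grem1, a BMP antagonist, was at 1.72, 6.11 and 3.86 FPKM (-0.64) and was the only one of 14 BMP pathway genes past the line. No gene of the 16 in the LIF and Stat3 list or of the 16 in the Nodal list passed it. The medians of these 4 lists lay between -0.16 and -0.11, and without centring between -0.06 and -0.02.

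A germline gene and 2 genes of the 2-cell-like state were lower, at low levels. Dazl, an RNA-binding protein of germ cells, was at 5.76, 5.32 and 2.87 FPKM in +/+, +/N and N/N (-0.80), the only one of 14 germline genes past 1.5-fold. Of these 14 genes 7 lay above 0 and 7 below, with Nanos3, a germ cell RNA-binding protein, at 0.35. Zscan4d, one of the zinc finger genes that mark brief 2-cell-like episodes in stem cell cultures, was at 4.29, 1.85 and 0.786 FPKM (-0.77), and Zscan4a at 3.64, 2.19 and 0.765 FPKM (-0.95). Between +/N and N/N, these Zscan4 genes reached 1 FPKM only in +/N, so the filter let them in only with a value below 0. Zscan4a and Zscan4d belong to a family of near copies and may share reads. Both were lower in the hairpin pair as well, Zscan4d at 4.49 FPKM in shLuc and 1.04 FPKM in shTbx3 and Zscan4a at 6.41 and 1.01 FPKM.

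For some genes +/N and N/N both stood far from +/+. Mgp, an inhibitor of calcification made by cartilage and smooth muscle, was at 1.84 FPKM in +/+, 29.3 FPKM in +/N and 18.4 FPKM in N/N, a difference of -0.73 between the last 2, and was listed at 0 in both hairpin libraries. Xaf1, an interferon-inducible gene, was at 36.3, 7.24 and 4.36 FPKM (-0.71). Lgals9, a galectin, was at 37.5, 9.05 and 17.2 FPKM, a difference of 0.77, so that N/N lay between the other genotypes. The predicted locus LOC100302567, named after its values were seen, had the highest level among the lower genes, at 214, 217 and 112 FPKM, and was listed at 0 in both hairpin libraries. Whether this locus was counted in the same way there is not known.

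Lists of general cell functions had medians slightly above that of all members, which was -0.02 (0.07 without centring). The median of 78 cytosolic ribosomal proteins was 0.06, of 74 respiratory chain genes 0.04, of 40 cell cycle genes 0.01, of 30 glycolysis and hypoxia genes 0.08 and of 22 cholesterol synthesis genes 0.06. Without centring these medians ran from 0.11 to 0.17. A difference above 0 was found for 48 of the ribosomal, 50 of the respiratory chain and 21 of the cell cycle genes. The same held for 23 of the glycolysis and 15 of the cholesterol genes, and for 44.4% of all members. None of these respiratory, glycolytic or cholesterol genes passed 1.5-fold. The ribosomal genes past the line were Rps28, Rps29 and Rps25, all lower, at -0.69, -0.60 and -0.59. Rps25 was at 8.84 and 5.97 FPKM in +/N and N/N but at 273 FPKM in shLuc. Ribosomal protein genes have many pseudogene copies, and how reads shared with them were counted is not known. The single cell cycle gene past the line was Cdkn1c.

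**Figure D3:**
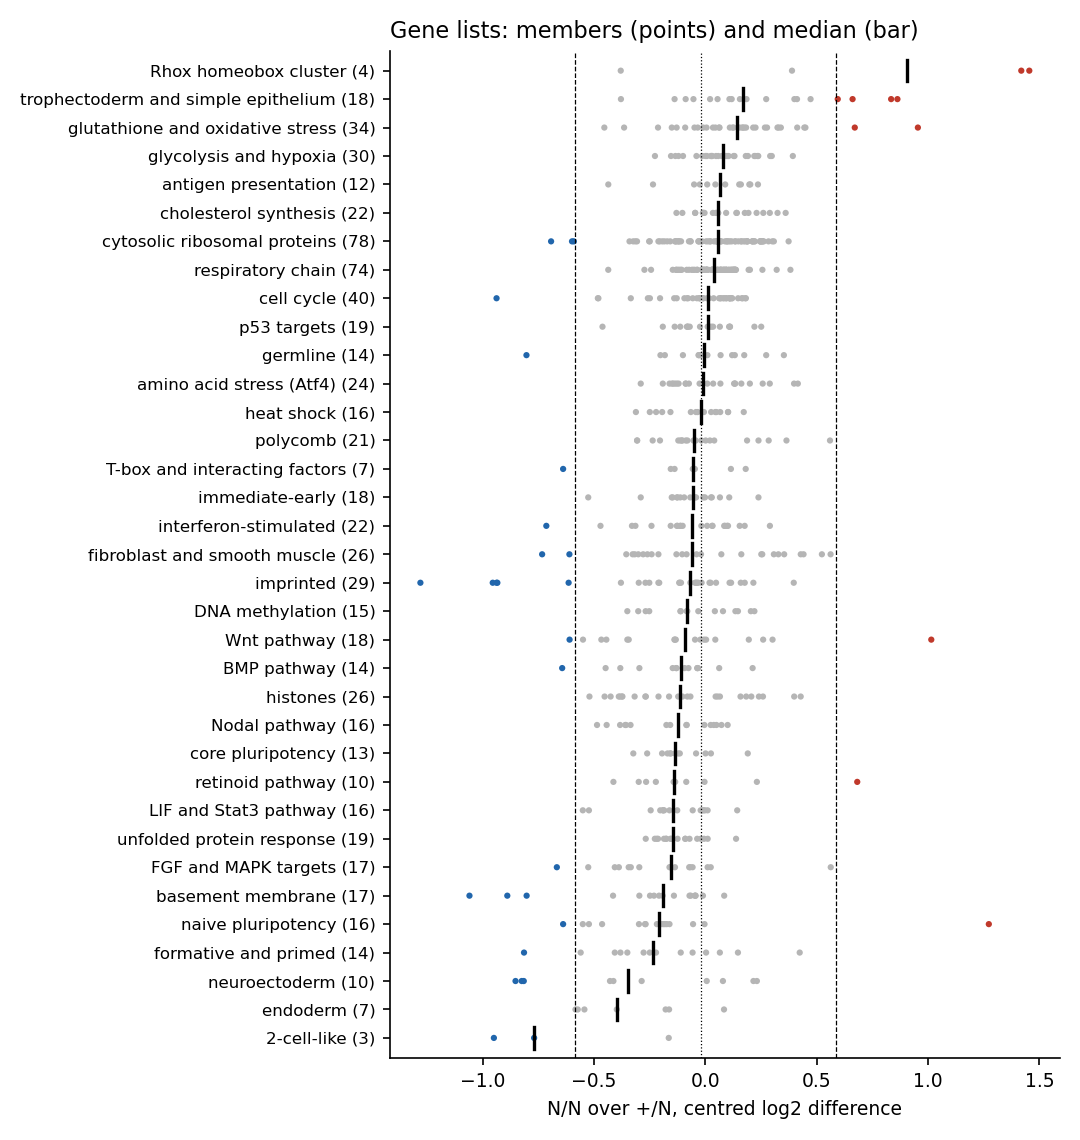
Centred log2 difference of N/N over +/N for the members (points) and the median (bar) of 35 gene lists, with the number of members in brackets. Dashed lines mark 1.5-fold and the dotted line the median of all members, -0.02. The Rhox cluster has the highest median, 0.90 over 4 genes, and the 2-cell-like list the lowest, -0.77 over 3. Zscan4a and Zscan4d of the latter list passed the filter only through +/N, and with no filter on level its median was -0.56.

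The values next to the 1.5-fold line show how narrow the step across it was. Among genes at 20 FPKM or more, the nearest inside on the higher side were Ifi30 and Cldn7 (both 0.59) and Ap1m2 (0.62). The nearest outside were Tdrd12 (0.56), Gchfr (0.55) and Cnn2 (0.52). On the lower side Rps29, Rpl39l and Tbx3 were nearest inside (-0.60, -0.61 and -0.64), and Apex1, Trh and Lrp1 nearest outside (-0.57, -0.55 and -0.53).

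Calls were unevenly spread over level and transcript length. In the lowest of 5 level classes, with means up to 3.27 FPKM, the standard deviation of the difference was 0.213 and 39 of the 84 lower genes were found, while in the highest class it was 0.147 with 3 lower genes. The median of the difference went from -0.10 in the lowest to 0.04 in the highest level class. By length of the longest transcript it went from 0.03 in the shortest class to -0.06 in the longest, and the shortest class, up to 1733 bases, held 24 of the higher and 26 of the lower genes. The number of reads behind each library is not known, and low values share no common step from which reads could be recovered. Of the named genes past the line, 23 higher and 38 lower reached 5 FPKM in either library.

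By chromosome, the median difference lay between -0.05 and -0.01 for 18 autosomes and the X chromosome and was 0.05 on chromosome 8. There 62.9% of 607 genes had a difference above 0, against 43.5% of 10411 on the other chromosomes. The middle 50% of genes ran from -0.06 to 0.13 on chromosome 8 and from -0.13 to 0.08 elsewhere, so the ranges overlapped widely. The median of chromosome 8 was the higher one in each of the 5 length classes and each of the 5 level classes. Set against +/+ instead, the median of chromosome 8 was -0.28 for +/N and -0.23 for N/N, which share the +/+ library. It was the lowest of all chromosomes in both. The medians of the others lay between -0.03 and 0.14 for +/N and between -0.05 and 0.17 for N/N. Col4a1, Col4a2 and Sfrp1 on the lower side and Mt1, Mt4 and Ifi30 on the higher side lie on this chromosome.

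**Figure D4:**
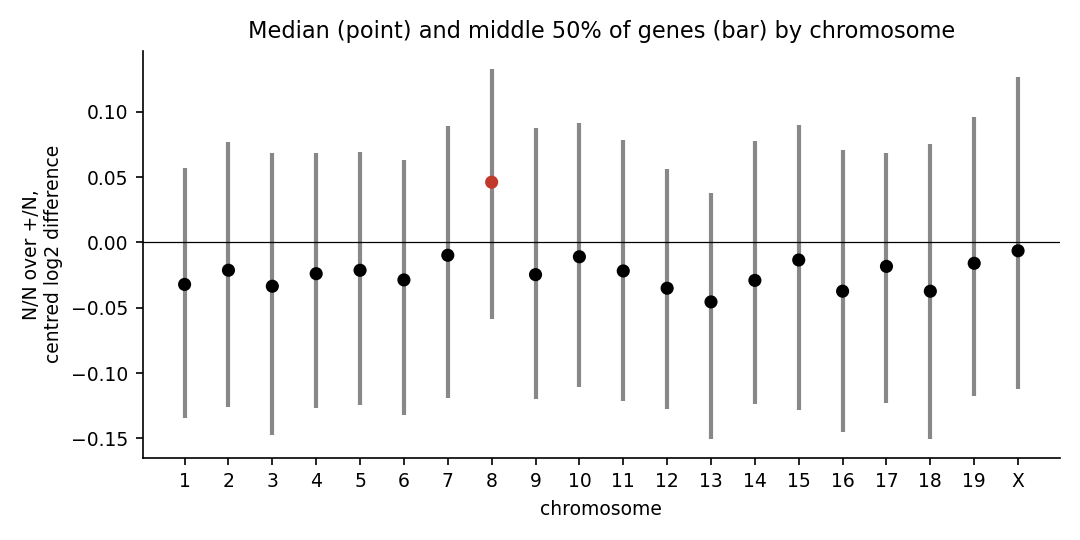
Median (point) and middle 50% (bar) of the centred log2 difference of N/N over +/N for the members on each chromosome. Chromosome 8, in red, has a median of 0.05, and the medians of the others lie at or below -0.01.

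The hairpin pair shares no library with the 2 genotypes, so the genes past 1.5-fold could be looked up there. Of 34 higher genes measured in it, 13 (38.2%) were 1.5-fold or more higher in shTbx3 and 2 (5.88%) lower, beside 6.54% higher and 7.16% lower over all genes of that pair (6.33% and 6.94% of the 11034 measured in both). Those 13 made up 1.86% of the 699 genes higher in shTbx3. Among them were Rhox6, Rhox9, Dppa3, Wnt7b, Gstm3, Calml4, S100a13, S100a1, Krt18, Mt1, Acta1 and Hist2h2bb. Of 80 lower genes measured, 36 (45%) were lower in shTbx3, 4.70% of the 766 lower there. These 36 include Tbx3, the gene targeted in both comparisons. A further 9 of the 80 (11.3%) were higher in shTbx3. The last group held Cdkn1c, Foxd3, Sox4 and Mirg. In the hairpin pair the median difference was 0.36 for the 34 genes and -0.54 for the 80.

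**Figure D5:**
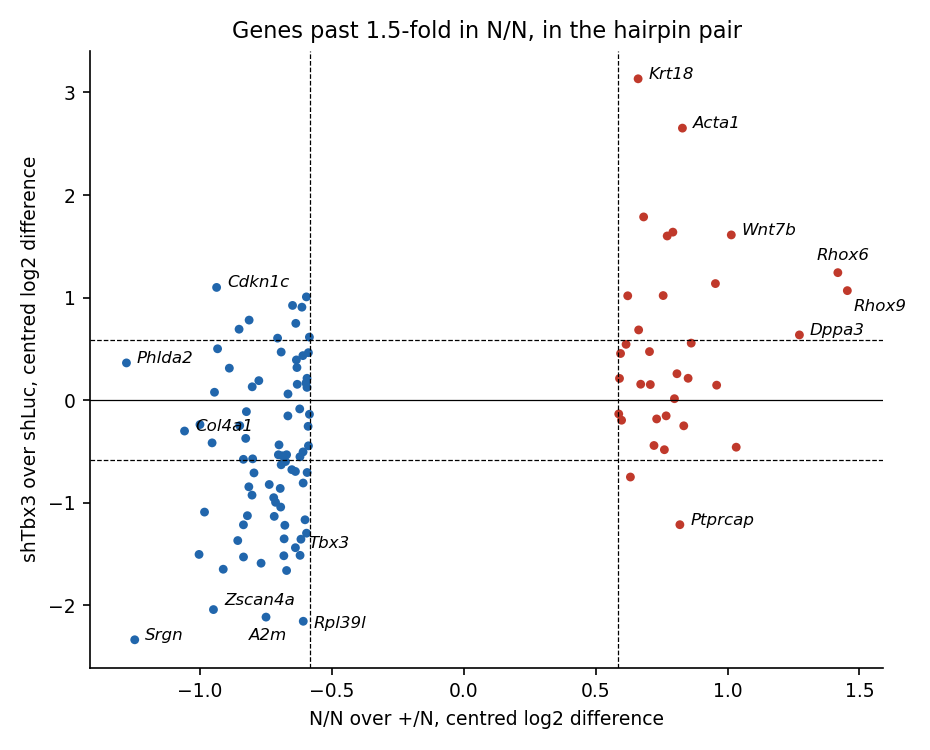
Centred log2 difference of shTbx3 over shLuc against that of N/N over +/N for the 114 genes past 1.5-fold in the latter and measured in both, with 1.5-fold marked by dashed lines. Krt18 has the highest value in the hairpin pair, 3.13, with 0.66 in the genotypes, while Phlda2, lowest in the genotypes at -1.28, is at 0.36.

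The series also lists 3078 genomic sites of biotin-tagged Tbx3, made in N/N cells that carried the tagged protein. Within 20 kb of a gene start a site was present for 2 of 34 higher genes (5.88%, exact 95% interval 0.720% to 19.7%), for 11 of 78 lower genes (14.1%, 7.26% to 23.8%) and for 1643 of 10906 other members (15.1%). The intervals are Clopper-Pearson and cover counting error only. Both intervals held the share of the other members. The targeted gene Tbx3 is itself among the 11 lower genes, with a site 8 bases from its start.

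Dppa3 had the strongest site of these genes by the authors' score, at chr6:122574284-122575028 (mm9), 1400 bases before the start, ranked 46 of 3078. The start of Cdkn1c was covered by a site at chr7:150646632-150647233 (score 67.1), which also lay within 20 kb of Slc22a18, and the start of the lower gene Pou2f3 by another. The nearest site to Foxd3 lay 19750 bases before its start and that of Jam2, a junctional adhesion protein with a difference of -0.80, 4478 bases before. Phlda2, Col4a1, Lama1, Rhox6, Rhox9, Wnt7b and Krt18 had no listed site within 20 kb.

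Single cells sorted for the surface antigen SSEA1, a stem cell marker, showed how some of the members were spread over 45 cells. They were unmodified R1 cells of 1 sort, neither +/N nor N/N, and count as 1 sample. These values were scaled separately and are not comparable with the bulk levels. Dppa3 reached 1 FPKM in 10 cells (22.2%, exact 95% interval 11.2% to 37.1%) and Tbx3 in 13 (28.9%, 16.4% to 44.3%). The intervals cover counting error over the cells of this sort only. Phlda2 reached it in 34 cells and Mt1 in all 45, while Cdkn1c did so in 10. The epithelial genes Krt18, Cldn7 and Espn each reached 1 FPKM in 1 cell and Rab25 in none, and in the pool of cells they were at 16.5, 12.1, 3.68 and 6.10 FPKM. Rhox6 was found in 1 cell, at 256 FPKM, and Rhox9 in 0 of 45 cells, which allows a share of up to 6.67% (3 counts of the total, where the exact 95% limit is 7.87%). This limits cells with a value and not cells that express the gene, and the pool had Rhox9 at 6.07 FPKM.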

How the data were processed

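RNA of 5 bulk populations, 45 single cells and 1 pool was used with the Tbx3 site list; the labels give reads of 26 or 100 bases without saying which library had which. The bulk and single-cell values are FPKM made by the authors on mm9, and the site values are the authors' deposited score. The submitters' processing notes name TopHat, Cufflinks, Cuffdiff, Cuffnorm, HOMER and Bowtie 1.0, with no role. From the FPKM, centred log2((a + 1)/(b + 1)) was computed for the members (192 small RNA rows and 18 numeric names left out), with python 3.11.15 and pandas 2.3.3; paralogous transcripts were aligned with biopython 1.88. Of the members 11018 (98.7%) matched the GENCODE M1 annotation of mm9. No p-value is given, as each group had 1 library. The calculations were tested on simulated data.

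The members and lists were chosen with earlier results of these data known. The naming rule took Tbx3, Dppa3, the 20 largest differences each way above a level of 5 FPKM (predicted and structural RNA names excepted), list members past 1.5-fold or up to 4 a list, and the 3 genes nearest the 1.5-fold line on each side at 20 FPKM or more; Mt4, Mt3, Acta1, Hist2h2bb, Pou2f3 and other neighbours or list members were named after their values were seen. Not every gene it gives is named. Alternatives changed the pseudocount, centring, filter, rows, site window and score, and the level that counted a cell.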

Additional observations from a re-analysis of the deposited data

How the results depend on the processing

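No paired analysis was possible because each group had 1 library. Counts at 1.5-fold (35 higher, 84 lower) and 2-fold (5 and 6) depended on the pseudocount: with 0.1 FPKM they were 71 and 199, and 13 and 32; with 5 FPKM 12 and 10, and 3 and 1. Without centring there were 66 and 48 at 1.5-fold and 2 lower at 2-fold. Rescaling both libraries to a fixed total over the members, which drops the centring and also makes the pseudocount smaller beside the values, gave 191 lower at 1.5-fold, and 10 and 24 at 2-fold. A filter of 5 FPKM left 41 lower at 1.5-fold and 3 at 2-fold. With all rows kept there were 76 and 133, and 33 and 41, small RNA included. All 35 higher and 84 lower genes remained with 0.1 FPKM. No named gene past 1.5-fold changed sign under these settings, but genes near 0 did without centring. Tbx3 fell short of 1.5-fold with a pseudocount of 5 (-0.53) and without centring (-0.55); Dppa3 stayed between 1.01 and 1.37. The share of lower genes with a site was 26.9% within 50 kb and 5.13% for sites at or above the median score; that of the other members was 7.57% within 5 kb, 26.7% within 50 kb and 7.58% at that score. Chromosome 8 had the highest median under each alternative, from 0.01 to 0.14. The unknown depth limits every value of a few FPKM.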

Other observations

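Genes of the contractile cytoskeleton, which smooth muscle and stretched or spread cells express, stood higher in N/N as a set that was picked after the values were seen. Cnn2, an actin-binding calponin, was at 35.8 FPKM in +/+, 38.3 FPKM in +/N and 59.3 FPKM in N/N (centred log2 difference 0.52), and Tpm1, a tropomyosin, at 54.1, 52.9 and 77.1 FPKM (0.44). Myl9, a myosin light chain, was at 5.79, 7.41 and 12.2 FPKM (0.56), and Acta2, smooth muscle actin, at 3.31, 19.3 and 28.1 FPKM (0.43). All 7 contractile genes of the fibroblast and smooth muscle list lay between 0.31 and 0.56, none past 1.5-fold. Skeletal actin, Acta1, which is outside the list, was past it at 1.97 and 4.62 FPKM in +/N and N/N (0.83).

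The fibrillar and type VI collagens of the same list did not share this direction. Of 5 such genes 4 lay below 0, from -0.36 to 0.07 over the set. In shTbx3 over shLuc both sets were higher, the contractile genes by 0.41 to 2.70 and the collagens by at least 1.64 on the log2 scale. Fibroblast markers summed to 87.9 FPKM in +/N and 95.7 FPKM in N/N. This sum includes Acta2, one of the contractile genes above. Of the other listed markers Col1a1 was at 30.5 and 34.3 FPKM, while Col1a2, Postn and Thy1 had lower levels in N/N. The part of such cells in these values was not tested.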
